A study of Mus musculus with 10 samples.

Results

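The genes described here are 9 genes known for the working of the mature beta cell: Ucn3, Slc30a8, G6pc2, Slc2a2, Abcc8, Glp1r, Trpm5, Prlr and Ffar1. They were listed by name, and a gene was read by the probes whose annotation gives that symbol and no other, by the probe with the highest mean log2 level where there were several. A probe was named for 7 of the 9, among 18069 genes with a named probe on the array. No probe was named for Prlr, the prolactin receptor, or for Ffar1, a receptor for free fatty acids, and neither is described further.

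The mature beta cell couples blood glucose to insulin release. Glucose enters the mouse beta cell through GLUT2 (Slc2a2) and is phosphorylated, a step that G6pc2, an islet glucose-6-phosphatase, opposes. The ATP made closes the potassium channel whose regulatory subunit is SUR1 (Abcc8), the membrane depolarizes with the help of channels such as Trpm5, a cation channel opened by calcium, and calcium entry releases the granules. The receptor for the incretin GLP-1 (Glp1r) raises cAMP and amplifies release, Slc30a8 (ZnT8) loads zinc into the insulin granule, and Ucn3 (urocortin 3) is a peptide released with insulin that acts on neighbouring delta cells and is a widely used marker of beta cell maturity.

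Total RNA was measured on 10 1-colour arrays in 5 groups of 2. Both groups of embryoid bodies (EBs) were floating aggregates of tet-pdx1/ngn3 cells, Ainv18 mouse ES cells in which doxycycline (Dox) switches on a Pdx1-IRES-Ngn3 cassette, harvested on day 13. All EBs were given activin A at 50 ng/ml, and from day 4 BMP4 at 50 ng/ml and bFGF at 10 ng/ml with activin A. In the study's protocol these factors were withdrawn before the harvest. The Dox(+) EBs also had 1 µg/ml Dox from day 4 while the Dox(-) EBs had none. Another entry of the labels of the EB arrays names activated Notch4 as the inducible gene in place of Pdx1 and Ngn3. The bTC6 cells are the βTC6 mouse insulinoma line, a transformed beta cell line grown in culture. The islets are whole mouse islets, whose age the labels do not give. The text of the study describes them as adult, whereas its supplement heads the islet column e15.5. The E15.5 pancreas is whole pancreas of mouse embryos at that stage. The comparisons ask how near the Dox-induced EBs came to each of these references, and how far the members separated the references themselves. Within a group the 2 arrays are labelled as biological replicates, with no mention of separate cultures, animals or litters, so p-values measure the spread between these samples.

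A level of 1 is that of an array's median probe. Between 65.98% and 74.3% of the 34967 probes were above background on an array. The slide numbers of the EB arrays lay in one range, those of the bTC6 and islet arrays in another and those of the E15.5 arrays in a further one, so that slide and tissue cannot be told apart except in Dox(+) against Dox(-) EBs and in bTC6 cells against islets. The islet arrays carried a strong exocrine signal: the summed level of 8 acinar markers, digestive enzymes for the most part, was at least 2083 to 2406 in islets, at least 1285 to 1360 in E15.5 pancreas, 30.4 to 33.7 with Dox and 10.0 to 10.4 without it in EBs, and 8.87 to 9.56 in bTC6 cells. The first 2 are lower limits, as all 8 probes were saturated in islets and 4 in E15.5 pancreas, so no order of these 2 groups is read from them; no member's probe was saturated on any array. Of the 9 acinar genes with a probe, all were above background on at least 1 array of the islets and of the E15.5 pancreas, and 3 were at background on both bTC6 arrays. The part of these cells in the members' values was not tested. In whole tissue and whole EBs a lower level can be fewer cells of a type or less RNA in each cell, which cannot be told apart here.

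The sequences just upstream of 4 members are shown because these genes fall into the patterns that recur below: Ucn3 and Slc2a2 were far higher in islets than in bTC6 cells, and G6pc2 and Glp1r were not. Each is the 250 bases before a RefSeq start of the gene, 5′ to 3′ on the gene's strand, on GRCm38.p6: Ucn3 from chr13:3945350-3945599 (minus strand), Slc2a2 from chr3:28697653-28697902, G6pc2 from chr2:69210823-69211072 (outer start) and chr2:69219699-69219948 (inner start), and Glp1r from chr17:30901617-30901866 (plus strand). Capitals mark every match, on either strand, to 3 short motifs: TAAT, the core bound by homeodomain proteins such as Pdx1 and Nkx6-1, CANNTG, the E-box bound by proteins such as Ngn3 and Neurod1, and TGCTGA, the core of the site of Maf proteins.
Ucn3: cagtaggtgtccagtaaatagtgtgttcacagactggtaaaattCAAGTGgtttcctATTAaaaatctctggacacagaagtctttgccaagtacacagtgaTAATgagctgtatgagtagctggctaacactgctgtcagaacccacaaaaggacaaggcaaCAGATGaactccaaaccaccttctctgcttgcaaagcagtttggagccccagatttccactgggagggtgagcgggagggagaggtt
Slc2a2: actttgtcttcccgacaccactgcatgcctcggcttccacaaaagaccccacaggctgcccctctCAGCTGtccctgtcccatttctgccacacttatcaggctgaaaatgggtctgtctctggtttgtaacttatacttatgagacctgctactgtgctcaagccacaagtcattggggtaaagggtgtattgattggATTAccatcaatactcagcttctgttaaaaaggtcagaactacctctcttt
G6pc2 outer start: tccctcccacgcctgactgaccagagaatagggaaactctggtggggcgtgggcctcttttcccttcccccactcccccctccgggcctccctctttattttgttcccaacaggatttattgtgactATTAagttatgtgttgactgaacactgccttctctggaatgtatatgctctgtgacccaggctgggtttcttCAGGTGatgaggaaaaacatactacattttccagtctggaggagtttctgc
G6pc2 inner start: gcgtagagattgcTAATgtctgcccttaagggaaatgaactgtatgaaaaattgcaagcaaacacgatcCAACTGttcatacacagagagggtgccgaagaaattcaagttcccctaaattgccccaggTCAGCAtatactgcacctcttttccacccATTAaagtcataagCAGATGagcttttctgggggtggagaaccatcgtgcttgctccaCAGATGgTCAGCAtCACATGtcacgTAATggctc
Glp1r: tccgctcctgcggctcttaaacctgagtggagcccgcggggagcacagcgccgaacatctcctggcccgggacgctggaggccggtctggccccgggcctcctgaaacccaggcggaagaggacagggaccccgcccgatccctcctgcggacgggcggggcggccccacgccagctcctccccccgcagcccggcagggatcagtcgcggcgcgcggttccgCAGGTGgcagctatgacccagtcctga
The Ucn3 window held 2 matches to TAAT and 2 to CANNTG. The Slc2a2 window and the outer G6pc2 window held 1 of each, whereas the inner G6pc2 window held 3 matches to the homeodomain core, 4 to the E-box and 2 to the Maf core. The Glp1r window, rich in G and C, held 1 E-box and no TAAT. None of the other windows shown held TGCTGA, and no matches overlapped. Which start the probe reads was not examined. Among all 32851 windows of this length in the table, 54.9% held TAAT, 66.2% held CANNTG and 16.1% held TGCTGA, so the first 2 motifs are in most windows of any gene. A match is a description of the letters and not a bound site.

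Among the 4 members that were highest in islets, the glucose transporter Slc2a2 had the widest gap to the next group after Ucn3. It stood at 72.6 and 73.5 in islets, at 2.56 and 4.68 in bTC6 cells, and at 3.05 and 3.71 in E15.5 pancreas, while the Dox(+) arrays read 1.73 and 1.70 and the Dox(-) arrays 1.27 and 1.14. Both islet arrays lay far above the other 8, and the bTC6 and E15.5 arrays overlapped. The islet level was 21.7-fold that of E15.5 pancreas (log2 difference 4.44 ± 0.22 SE, limma adjusted p = 3.02e-08), 21.1-fold that of bTC6 cells (adjusted p = 3.36e-08) and 42.7-fold that of Dox(+) EBs (adjusted p = 6.62e-09). The insulinoma line and the embryonic organ were not separated for this gene (bTC6 cells against E15.5 pancreas, log2 difference 0.04 ± 0.22 SE, adjusted p = 0.912). The Dox(+) arrays were above the Dox(-) arrays by 0.51 ± 0.22 on the log2 scale, which did not pass the test (adjusted p = 0.0945) with all 10 arrays in the fit. The bTC6 arrays, which differed most from each other at this probe, set that spread: without the first or the second of them the same difference had an adjusted p of 0.00373 or 0.00387.

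G6pc2, which opposes glucose phosphorylation, had a different order of groups. The bTC6 arrays read 47.8 and 51.9, the islet arrays 35.9 and 30.4 and the E15.5 arrays 1.83 and 2.00. The Dox(+) arrays read 0.823 and 0.810, and the Dox(-) arrays, 0.0721 and 0.301, were not above background. No 2 groups overlapped. Dox(+) EBs were at least 2.82-fold above Dox(-) EBs (log2 difference 1.52 ± 0.12 SE on floored levels, limma adjusted p = 2.34e-06), yet 2.34-fold below E15.5 pancreas, 40.5-fold below islets and 61.03-fold below bTC6 cells. The rise with Dox therefore took G6pc2 to 2.47% of its level in islets. The level in bTC6 cells was 1.51-fold that in islets (adjusted p = 0.00106), but after quantile normalization the log2 difference was -0.09 (adjusted p = 0.535), and bTC6 cells and islets were not separated.

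For the potassium channel, the 3 probes named for Abcc8 gave different patterns. The probe with the highest mean level, which stands for the gene by the rule, is annotated to an expressed sequence tag (BE943915) and varied least of all 7 members: the islet arrays read 36.3 and 36.0, the E15.5 arrays 13.2 and 12.2, the bTC6 arrays 11.4 and 11.7, the Dox(-) arrays 12.7 and 14.0 and the Dox(+) arrays 11.6 and 11.002. Islets were the one group that stood apart, 2.85-fold above E15.5 pancreas (limma adjusted p = 8.40e-08). On this probe Dox(+) EBs were lower than Dox(-) EBs by 1.18-fold (log2 difference -0.24 ± 0.09 SE, adjusted p = 0.0483), a call that was lost when any 1 of 8 arrays was left out, the bTC6 arrays excepted (adjusted p of up to 0.255).

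The other 2 probes of Abcc8 went the other way with Dox. The second, annotated to AK083916, read 3.41 and 3.12 without Dox and 7.70 and 6.73 with it, and stood at 7.82 and 7.30 in E15.5 pancreas, 17.2 and 14.9 in bTC6 cells and 43.2 and 38.9 in islets. It rose 2.21-fold with Dox (adjusted p = 1.46e-05), and the arrays of Dox(+) EBs and E15.5 pancreas overlapped (log2 difference -0.07 ± 0.11 SE, adjusted p = 0.629). The third, annotated to the RefSeq transcript NM_011510, was not above background in Dox(-) EBs and read 0.703 and 0.536 on the Dox(+) arrays, 5.10 and 4.19 in bTC6 cells, 5.49 and 4.19 in E15.5 pancreas and 8.34 and 7.79 in islets. It rose at least 2.27-fold with Dox (adjusted p = 0.000268). All 3 probes had islets highest, and they placed the Dox(+) EBs at 31.2%, 17.6% and 7.62% of the islet level. The direction of Abcc8 with Dox thus rests on the probe, and the probes' sequences were not used here.

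**Figure D1:**
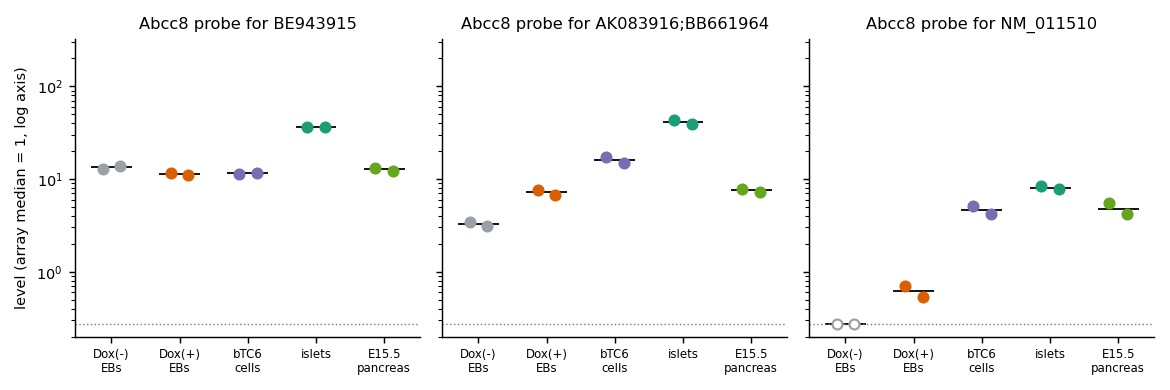
Level of Abcc8 on each of its 3 probes (panels, by annotated sequence) in the 5 groups, on a log axis on which 1 is the array's median probe. Points are arrays (open where at background), bars the mean of the 2 arrays on the log scale, and the dotted line the floor of 0.27; from Dox(-) to Dox(+) EBs the left probe goes from 12.7 and 14.0 to 11.6 and 11.002, while the middle one goes from 3.41 and 3.12 to 7.70 and 6.73.

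Trpm5, the calcium-activated cation channel, was at 11.9 and 20.8 in islets, 4.79 and 4.67 in bTC6 cells, and 1.01 and 1.23 in E15.5 pancreas, and the Dox(+) arrays, at 0.698 and 0.598, lay just above the Dox(-) arrays, at 0.589 and 0.493. The islet arrays differed from each other more than those of any other group at this probe (SD 0.56 on the log2 scale, n = 2), but neither came near another group. Islets were 14.2-fold above E15.5 pancreas (log2 difference 3.83 ± 0.23 SE, limma adjusted p = 1.08e-07), 3.33-fold above bTC6 cells (adjusted p = 5.05e-05) and 24.4-fold above Dox(+) EBs (adjusted p = 2.42e-08). The difference with Dox, 0.26 ± 0.23 on the log2 scale, did not pass the test (adjusted p = 0.397). Trpm5 is also a marker of tuft cells, a chemosensory epithelial cell. Of the tuft cell list, 10 of 12 genes had a probe, and their summed level, Trpm5 included, was 26.6 to 35.7 in islets, 50.7 to 58.1 in bTC6 cells, 22.2 to 24.0 in Dox(+) EBs, 11.5 to 12.0 in E15.5 pancreas and 9.36 to 9.49 in Dox(-) EBs. The highest genes carried much of such a sum. These were Trpm5 itself and Avil in islets (mean log2 level 2.67 for Avil), Dclk1 in Dox(+) EBs (4.17), and Avil and Dclk1 in bTC6 cells (4.58 and 3.82). In islets against E15.5 pancreas, 5 of 8 tested were higher and 3 lower, where 32.5% of all probes were higher and 32.5% lower. Besides Trpm5, Avil (8.27-fold), Dclk1 (3.87-fold), Chat (at least 2.12-fold) and Il25 (1.93-fold) rose. Ltc4s (3.58-fold), Alox5ap (2.27-fold) and Gfi1b (1.47-fold) were lower. Chat and Il25 were low in islets, at mean log2 levels of -0.80 and -0.84. The 2 genes not tested, Pou2f3, a transcription factor of tuft cells, and Sh2d6, were at background on both islet arrays. The part of tuft cells in the level of Trpm5 was not tested.

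The incretin receptor Glp1r was above background in islets and bTC6 cells, and in none of the other groups. It stood at 4.25 and 5.25 in bTC6 cells and at 2.94 and 2.67 in islets, and the highest reading in Dox(-) EBs, Dox(+) EBs and E15.5 pancreas was 0.176, none of the 6 above background. Islets were at least 10.4-fold above E15.5 pancreas (limma adjusted p = 1.10e-08), and bTC6 cells at least 17.5-fold above Dox(+) EBs (adjusted p = 3.27e-09). These p-values are on floored levels, where the arrays of the 3 groups at background have no spread of their own. The line exceeded islets by 1.69-fold (log2 difference 0.75 ± 0.15 SE, adjusted p = 0.00103). For the EBs and the embryonic pancreas these arrays give an upper limit, 9.64% of the islet level at the floor, and no order among the 3 groups.

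The zinc transporter of the insulin granule, Slc30a8, was at 98.7 and 95.6 in bTC6 cells and at 101 and 87.3 in islets. The E15.5 arrays read 2.24 and 2.28, the Dox(+) arrays 0.470 and 0.522, and the Dox(-) arrays at most 0.154, which was not above background. The bTC6 and islet arrays overlapped (log2 difference 0.05 ± 0.10 SE, limma adjusted p = 0.72), although quantile normalization moved that difference to -0.68 (adjusted p = 9.59e-05). Islets were 41.5-fold above E15.5 pancreas (adjusted p = 7.83e-11). Dox(+) EBs rose at least 1.83-fold over Dox(-) EBs (log2 difference 0.87 ± 0.10 SE on floored levels, adjusted p = 6.42e-05), to 0.527% of the islet level, and stayed 4.57-fold below E15.5 pancreas (adjusted p = 4.01e-08) and 196-fold below bTC6 cells (adjusted p = 9.42e-12).

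Ucn3 separated islets from every other group by the widest margin of the 7 genes. The islet arrays read 189 and 180.1, the bTC6 arrays 1.49 and 1.53, the E15.5 arrays 0.862 and 0.754, the Dox(+) arrays 0.849 and 0.784, and the Dox(-) arrays 0.397 (at background) and 0.657. The islet level was 229-fold that of E15.5 pancreas (log2 difference 7.84 ± 0.20 SE, limma adjusted p = 2.57e-10), 226-fold that of Dox(+) EBs (adjusted p = 2.08e-10) and 122-fold that of bTC6 cells (adjusted p = 4.72e-10). Dox(+) EBs and E15.5 pancreas overlapped (log2 difference 0.02 ± 0.20 SE, adjusted p = 0.968). The insulinoma line held 0.817% of the islet level of Ucn3, against 103% of that of Slc30a8 and 151% of that of G6pc2. The 1.60-fold difference between Dox(+) and Dox(-) EBs (adjusted p = 0.0173) was lost without the first Dox(-) array, whose reading was at background (log2 difference 0.31, adjusted p = 0.114), and without either Dox(+) array (adjusted p = 0.104 and 0.0594).

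**Figure D2:**
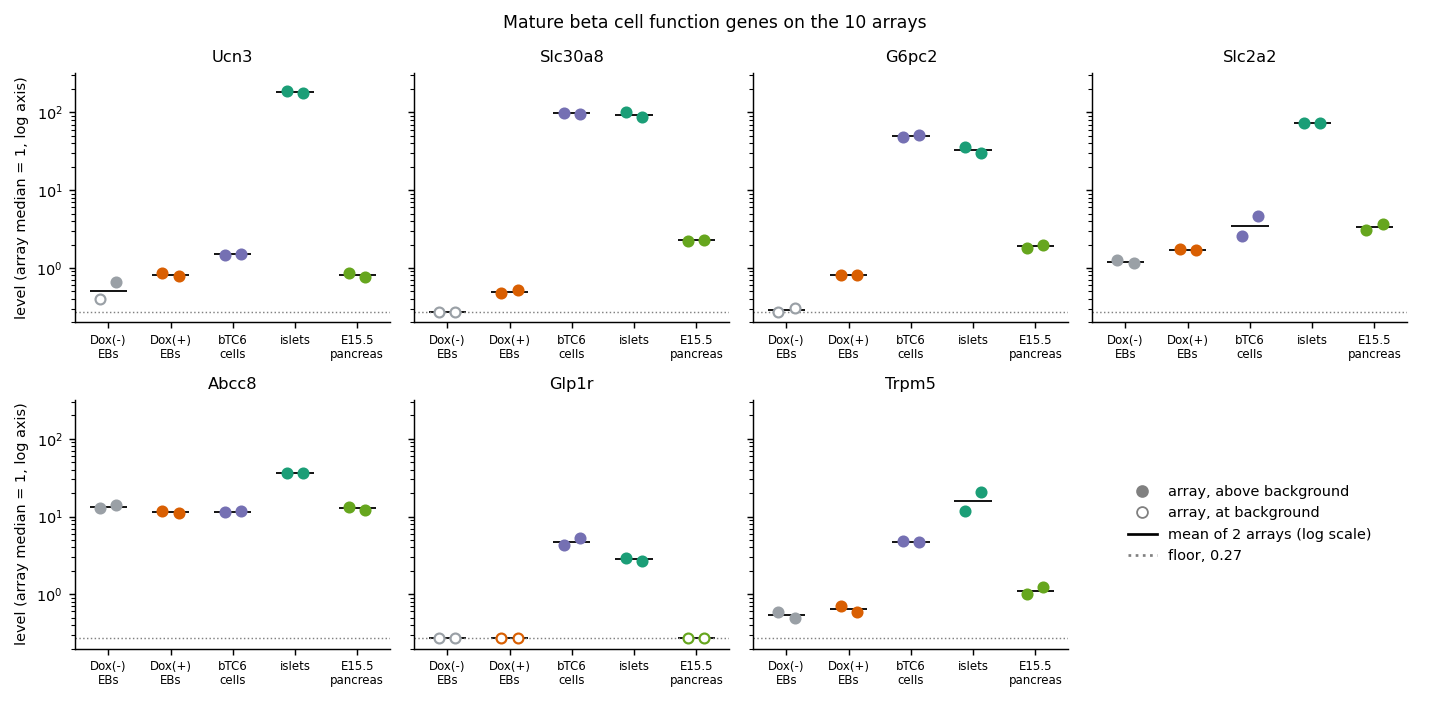
Level of each of the 7 members on the 10 arrays, by group, on a log axis on which 1 is the array's median probe. Points are arrays (open where at background), bars the mean of the 2 arrays on the log scale, and the dotted line the floor of 0.27; islets are highest for Ucn3, Slc2a2, Abcc8 and Trpm5, and bTC6 cells lie level with islets or above them for Slc30a8, G6pc2 and Glp1r.

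Between embryonic pancreas and islets all the members differed in the same direction. Islets exceeded E15.5 pancreas for 7 of 7 members, from 2.85-fold for Abcc8 to 229-fold for Ucn3, with a median log2 difference of 4.11. Over all 28109 probes tested, 32.5% were higher in islets and 32.5% lower, with a median of 0.00. All 7 passed in each of the alternatives in which they were tested. Between the same groups the summed level of the 8 mesenchyme and endothelium markers was 72.5 to 74.8 in islets and at least 444 to 456 in E15.5 pancreas (1 probe saturated), and that of 3 of the 4 delta and PP cell markers was at least 521 to 584 (2 probes saturated) and 36.3 to 36.8, so the make-up of the tissue differed along with the members. Its part in their values was not tested.

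The insulinoma line was split between the members. In bTC6 cells against islets, 2 members were higher (G6pc2 and Glp1r), 4 were lower (Ucn3, Slc2a2, Abcc8 and Trpm5) and Slc30a8 did not pass, at a median log2 difference of -1.65, where 39.1% of all probes tested were higher in bTC6 cells and 27% lower. The falls ran from 3.14-fold for Abcc8 to 122-fold for Ucn3, and the rises were 1.51-fold and 1.69-fold. The median of all probes in this comparison was 0.12 and moved to 0.00 with quantile normalization, under which 1 member, Glp1r, was higher. Of the 9 acinar genes, 9 were lower in bTC6 cells than in islets, and their part in the members' values was not tested. Against E15.5 pancreas, bTC6 cells were higher for 5 members, by 1.87-fold (Ucn3) to 43.0-fold (Slc30a8), while 41.8% of all probes tested were higher and 23.7% lower. That comparison uses no islet level, but it shares the bTC6 arrays and, through the fit, the spread of the islet arrays. Slc2a2 did not pass, nor did Abcc8 on its main probe and the one annotated to NM_011510, but on its second probe Abcc8 was 2.12-fold higher in bTC6 cells (adjusted p = 7.90e-06).

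With Dox, the EBs gained low levels of G6pc2 and Slc30a8, which were not above background without it. Of 7 members, 3 were higher in Dox(+) than in Dox(-) EBs (G6pc2, Slc30a8 and Ucn3), Abcc8 was lower on its main probe, and Slc2a2, Trpm5 and Glp1r did not pass. The median log2 difference was 0.51, against -0.03 over all probes. Since 20.7% of all probes tested were higher and 22.5% lower, a count of 3 of 7 is not far from that background. G6pc2 and Slc30a8 passed in 20 of 21 alternatives each, the exception being a floor of 1 that lies above their Dox(+) levels, and Ucn3 passed in 15 of 21. Markers of other endoderm fell at the same time: the summed level of 9 of the 10 liver markers was at least 565 to 567 (1 probe saturated) in Dox(-) and 65.7 to 78.8 in Dox(+) EBs, and that of 7 of the 8 intestine markers 89.0 to 96.4 and 14.4 to 17.8. Their part in the members' values was not tested.

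**Figure D3:**
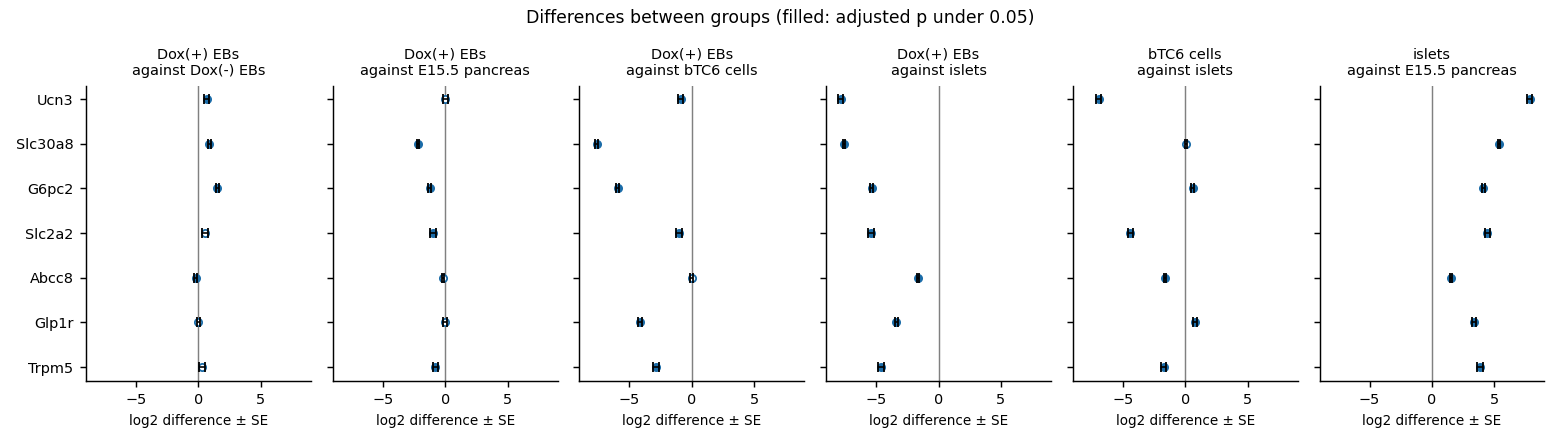
Log2 difference (points) and its standard error (bars) for each of the 7 members in 6 comparisons, with filled points where the limma adjusted p was under 0.05. All 7 points lie right of 0 for islets against E15.5 pancreas and left of 0 for Dox(+) EBs against islets, whereas Dox(+) against Dox(-) EBs runs from -0.24 to 1.52.

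Set against the references, the Dox(+) EBs were lower for most members. Against islets all 7 were lower (median log2 difference -5.34; of all probes tested, 31.6% were lower and 36.4% higher), by 3.20-fold for Abcc8, at least 10.4-fold for Glp1r and 24.4-fold to 226-fold for the rest. Against bTC6 cells 6 were lower (37.4% of all probes tested, with 25.5% higher). Among them Slc2a2, at a log2 difference of -1.01 (limma adjusted p = 0.00233), was lost with the arrays of these 2 groups alone (adjusted p = 0.0684), and ran from -1.45 to -0.58 as each array was left out. Abcc8 did not pass on its main probe (log2 difference -0.03 ± 0.09 SE, adjusted p = 0.809), whereas its second probe was 2.22-fold lower than in bTC6 cells (adjusted p = 5.54e-06) and the third 7.53-fold lower (adjusted p = 1.25e-07), and by either of those probes all 7 members were lower. Against E15.5 pancreas 4 were lower (26.9% of all probes tested, with 33.1% higher): Slc30a8 by 4.57-fold, G6pc2 by 2.34-fold, Slc2a2 by 1.97-fold (adjusted p = 0.00328) and Trpm5 by 1.72-fold (adjusted p = 0.0122), the last passing in 17 of 22 alternatives. It was lost without the second Dox(+) array (adjusted p = 0.0911) or the second E15.5 array (0.0992), with normexp and quantile normalization (0.0737), without the filter on background (0.0738) and at a floor of 1 (0.895). On the probe annotated to NM_011510 Abcc8 was 7.82-fold below E15.5 pancreas as well (adjusted p = 1.65e-07), while its main and second probes did not pass. No member was higher in Dox(+) EBs than in any of the 3 references, except that Abcc8 on its main probe passed above bTC6 cells under quantile normalization, alone or after normexp background correction (log2 difference 0.222 and 0.209). These 3 comparisons share the Dox(+) arrays and are not independent of each other.

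Over the 5 groups ordered by mean level, 18 of the 28 pairs of neighbours differed beyond their spread. The same share over all probes was not computed, so the count is not read as a trait of the members. G6pc2 alone had all 4 neighbouring pairs separated, and Abcc8 on its main probe had the islets separated and no other pair. Over the 10 arrays, Ucn3, Slc2a2 and Abcc8 on its main probe followed one another (Pearson r of log2 levels 0.977 for Ucn3 and Slc2a2, 0.962 for Ucn3 and Abcc8). So did Slc30a8, G6pc2 and Glp1r (0.994 for Slc30a8 and G6pc2, 0.953 for Glp1r with each). Between these sets r was as low as 0.444, for Abcc8 on its main probe and Glp1r. Trpm5 lay between the 2 sets (0.875 with Ucn3 and 0.944 with Slc30a8). Correlations of the other 2 probes of Abcc8 were not computed, so its place beside Ucn3 rests on the main probe. The 10 points are 5 tissues with 2 arrays each, which share their scaling, so these values describe the order of 5 groups.

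Among 3409 other genes that varied enough over the arrays, the pattern most like the mean of the members was that of Shisal2b, with r of 0.995 over 10 arrays and levels of 26.96 and 24.7 in islets, 6.22 and 5.84 in bTC6 cells and at most 0.661 elsewhere. It was followed by Olfr514, Neu2, Prss53, Gm16124 and Igfals (r from 0.994 to 0.989). The probe named for Olfr514, an olfactory receptor, read 200 and 198 in islets and 2.00 and 2.48 in Dox(-) EBs. The genes most like Ucn3 were Olfr749, Dio1 and Dspp, and Dio1, a deiodinase of thyroid hormone, was at 13.1 and 12.6 in islets, 0.486 and 0.463 in bTC6 cells and at the floor on the other 6 arrays. Those most like Glp1r were Cd164l2, Atp2a2 and Gm9909, of which Cd164l2 was at 4.23 and 4.65 in bTC6 cells and 3.38 and 3.52 in islets. Atp2a2, the calcium pump of the endoplasmic reticulum, was at 221 and 236 in bTC6 cells, 181 and 165 in islets and 38.4 to 50.7 elsewhere.

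**Figure D4:**
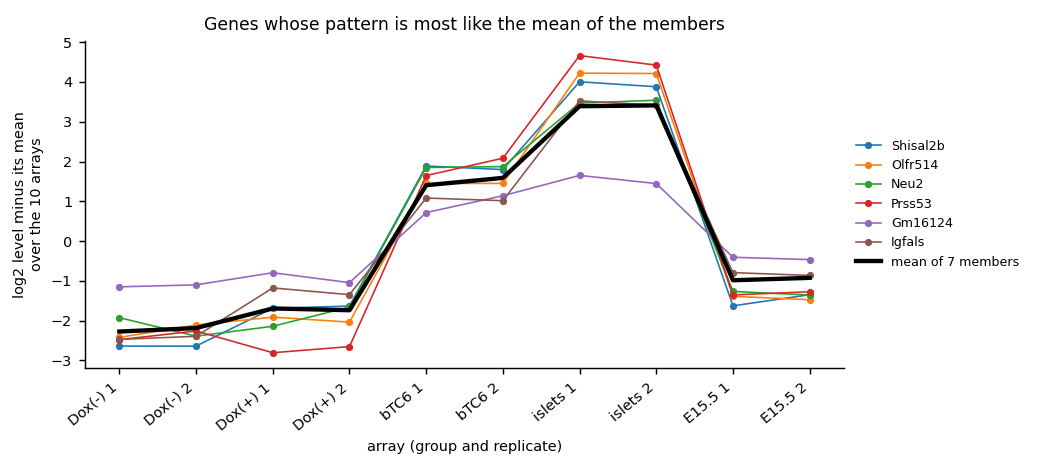
Log2 level minus its mean over the 10 arrays, by array, for the mean of the 7 members (thick black line) and the 6 genes whose pattern is most like it. All 7 lines are lowest in the EBs and highest in islets, with bTC6 cells between, and Pearson r with the mean of the members is 0.989 to 0.995.

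Of the wider machinery of stimulus-secretion coupling, 26 genes were listed and 18 tested. With Dox 8 were higher and 1 lower (20.7% and 22.5% of all probes), and in islets against E15.5 pancreas 12 were higher and 3 lower (32.5% and 32.5% of all probes). In bTC6 cells against islets 6 were higher and 5 lower, near the 39.1% and 27% of all probes. Kcnj11, the pore of the channel that Abcc8 regulates, was 2.38-fold higher in islets than in E15.5 pancreas (limma adjusted p = 0.0011), and in Dox(+) EBs at least 1.66-fold above Dox(-) EBs (adjusted p = 0.0346). Its levels were low, at a mean log2 of -0.02 in islets, -1.10 in Dox(+) EBs, -1.27 in E15.5 pancreas and -1.83, at background, in Dox(-) EBs. With Dox the calcium channel subunits Cacna1d (6.90-fold) and Cacna1c (4.13-fold) and the adenylyl cyclase Adcy8 (11.6-fold) rose. Adcy8 in Dox(+) EBs, at 10.9 and 10.3, exceeded islets 26.99-fold, a direction no member had. In islets against E15.5 pancreas the smallest adjusted p-values were those of Cacnb2 (at least 4.00-fold), Cacna1c (2.47-fold) and the mitochondrial glycerol phosphate dehydrogenase Gpd2 (4.06-fold).

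Of 20 beta cell identity and granule genes listed, 15 were tested, and Ins1, Ins2, Iapp, Pcsk2 and Scg2 had no named probe. With Dox 12 of the 15 rose and 0 fell, at a median log2 difference of 3.47. The 3 that did not pass were Mafa, Pdx1 and Entpd3. Of the 6 alpha cell genes tested 5 rose, at a median of 3.97, so the rise was not particular to the beta cell list. For the array as a whole, 20.7% of probes rose with Dox and 22.5% fell, at a median of -0.03. All 15 genes were higher in islets than in E15.5 pancreas, a comparison in which 32.5% of probes went each way. The granule protein Chga read 105 on both Dox(+) arrays against 1.95 and 1.91 on the Dox(-) arrays, a 54.7-fold difference (limma adjusted p = 2.80e-11). The factor Nkx6-1 rose 11.1-fold with Dox (adjusted p = 7.94e-08) and was still 54.3-fold below islets. Mafa, a factor of mature beta cells, was at background in Dox(-) EBs, did not pass with Dox (adjusted p = 0.369) and stood 15.6-fold higher in islets than in Dox(+) EBs (adjusted p = 1.66e-07) and 9.78-fold lower in bTC6 cells than in islets (adjusted p = 6.87e-07). The probe named for Pdx1, the gene induced by Dox, did not exceed background in any of the EB samples, and its place relative to the cassette was not examined. It was also low in the references, at a mean log2 level of -0.993 in islets, -0.555 in bTC6 cells and -1.712 in E15.5 pancreas. Its readings therefore do not show whether Dox raised Pdx1 RNA.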

How the data were processed

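Total RNA of 10 samples was hybridized to 1-colour CodeLink Mouse Whole Genome arrays. Per the deposited files and the submitters' notes, the authors scanned them with CodeLink Expression Analysis 4.1.0.29054, and the deposited normalized intensity is the spot mean minus the local background median, divided by the array median. The table of the series and the files of the single arrays held the same values (largest difference 0). Spots flagged as masked, contaminated or irregular were left out, and a spot flagged as near background counts as not above background.

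Probes were named by the platform annotation and RefSeq symbols of GRCm38.p6: 21615 have 1 symbol, 681 several and 12671 none. A floor of 0.27 was set before log2 was taken, so readings below it count as equal and add no spread to the fit. A model with a mean for each group was fitted to the 10 arrays in limma 3.58.1 (R 4.3.3, eBayes with trend and robust), and p was adjusted by Benjamini-Hochberg over 28109 probes, those that both arrays of some group measured above background, with a threshold of 0.05. The fit was tested on simulated data. Against a group with no array above background a fold is a bound ("at least"), the smaller of the fold on floored levels and that on the lowest signal each array measured above background. Precision is limited by the number of arrays and by the signal, whose median was 4.56 to 5.61 times the background.

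The members and the 12 gene lists were chosen with earlier results of these data known. The lists are the members, stimulus-secretion coupling, beta cell identity and granule, prolactin response, tuft cell, alpha cell, delta and PP cell, acinar, duct, liver, intestine, and mesenchyme and endothelium. The genes named are all members with every probe, the 6 genes with the highest Pearson correlation with the mean member profile and 3 with each of Ucn3 and Glp1r, among genes with an SD of log2 level of at least 1, the genes Kcnj11, Mafa, Pdx1 and Nkx6-1 (Iapp has no named probe), and up to 3 genes of a list with the smallest adjusted p in islets against E15.5 pancreas and in Dox(+) against Dox(-) EBs. Pou2f3, Sh2d6, Chat, Il25, Ltc4s, Gpd2 in other groups and levels beyond this rule were chosen after their values were seen. Summed levels leave out genes missing on any array.

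The alternatives were, for scaling, quantile normalization with or without normexp (offset 50); for low values, a floor of 0.1 or 1, keeping all probes whatever their background flag, or keeping those above it on every array; for the fit, the 2 groups compared alone, eBayes with neither trend nor robust weights, a replicate block, and each array left out in turn; and for spots and probes, irregular and contaminated spots kept, the second probe of Abcc8, and its remaining probe, added after its values were seen. Software was Python 3.11.15 with pandas 2.3.3, matplotlib 3.10.9 and numpy 2.4.6.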

Additional observations from a re-analysis of the deposited data

How the results depend on the processing

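Over 22 alternatives, the members' rise from E15.5 pancreas to islets and their lower level in Dox(+) EBs than in islets kept direction and threshold wherever a member was tested. Restricting the test to probes above background on all arrays dropped members, and so left 3 higher in islets than in E15.5 pancreas, 0 higher in bTC6 cells than in islets, 3 lower in Dox(+) EBs than in islets, 2 lower than in bTC6 cells and 2 lower than in E15.5 pancreas, 0 higher and 0 lower with Dox, and 6 separated neighbours. A floor of 1 lies above the EB levels of Ucn3, Slc30a8 and G6pc2 and left 0 members higher and 0 lower with Dox. With a floor of 0.1, 0 members were lower with Dox and 0 higher in bTC6 cells than in islets (adjusted p = 0.245 for G6pc2 and 0.0527 for Glp1r).

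Quantile normalization, alone or after normexp, left 1 member higher in bTC6 cells than in islets and made 1 higher in Dox(+) EBs than in bTC6 cells. Under these 2 settings Slc30a8 in bTC6 cells against islets was at -0.682 and -0.674, G6pc2 at -0.087 and -0.085, and Abcc8 in Dox(+) EBs against bTC6 cells at 0.222 and 0.209. The median of all probes moved by 0.124 in the first comparison and 0.106 in the second with quantile normalization; the cause of the reversals was not tested further.

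The fall of Abcc8 with Dox rested on the fit and the probe: 0 members were lower with the arrays of the 2 groups alone, with eBayes without trend and robust weights, and with the other 2 probes, where the difference was 1.141 and 1.185. On those probes Abcc8 also passed below bTC6 cells (-1.152 and -2.912), and on the one annotated to NM_011510 below E15.5 pancreas (-2.966). Leaving out 1 array at a time gave 0 to 1 members lower and 2 to 4 higher with Dox, 3 to 4 lower in Dox(+) EBs than in E15.5 pancreas, and 17 to 20 separated neighbours, and changed no other member count. Ucn3 with Dox also failed without the filter on background (adjusted p = 0.0885) and with the 2 groups alone (0.199).

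No pairing of arrays by replicate number was seen: over 10 pairs of groups the correlation of same-numbered deviations ran from -0.069 to 0.063, and 0 were over 0.1. A shared culture or day could still have gone unseen, as each group gives a single difference between its arrays. With the replicate number as a block, 0 members were lower with Dox (Abcc8, adjusted p = 0.0613), and no other member count changed.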

Other observations

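The remaining marker lists are given beside the shares of all probes tested, which were 20.7% higher and 22.5% lower with Dox, 32.5% each way in islets against E15.5 pancreas, and 27% lower in bTC6 cells than in islets. Of the 6 alpha cell genes tested, 5 were higher with Dox, with Gcg (glucagon) 94.0-fold higher (limma adjusted p = 3.37e-10), and 4 were higher and 1 lower in islets than in E15.5 pancreas. Of the 4 delta and PP cell genes, 3 rose with Dox, and the probe of Rbp4 was saturated on all 4 EB arrays. Of 9 acinar genes, 5 rose with Dox, with Cpa1 at 32.5-fold, and 9 were lower in bTC6 cells than in islets.

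Of 4 duct genes, 2 were lower with Dox, Krt19 by 8.26-fold among them, and of 9 liver genes 8 were lower. Intestine genes were lower for 6 of 8, and of 8 mesenchyme and endothelium genes 4 were lower and 3 higher. Of 8 tuft cell genes, 2 were higher and 3 lower with Dox, near the shares of all probes, and Dclk1, which neurons and endocrine cells can also express, was at least 66.5-fold higher (adjusted p = 6.45e-11) while Trpm5 did not pass.

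The prolactin receptor had no named probe, but 7 genes of its signalling and response were tested. Socs2, a feedback inhibitor, was at 26.6 and 24.1 in bTC6 cells, 12.8 and 12.5 in Dox(+) EBs, 11.7 and 10.7 in islets, 6.68 and 6.78 in E15.5 pancreas and 5.32 and 4.78 in Dox(-) EBs. It rose 2.51-fold with Dox (adjusted p = 1.38e-06), and Cish, another such inhibitor, was 1.71-fold lower (adjusted p = 0.00397). In islets against E15.5 pancreas 4 of the 7 were higher and 0 lower.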
